A study of Mus musculus with 7 samples.

Results

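Retinoids are the vitamin A compounds. The genes described here carry them into the enterocyte, store them, convert them and answer to them. They are 9 genes, Rdh7, Lrat, Rbp2, Aldh1a1, Aldh1a2, Dhrs3, Rarb, Isx and Rdh11, of 18193 genes on the arrays. Every probe set annotated to 1 of these genes alone was taken, which gave 11 of 45101 probe sets. Lrat and Rdh11 had 2 probe sets and the other 7 genes had 1. The genes were chosen by their penicillin and control values on these same arrays, together with their known role, so their differences are a description and carry no test.

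Terminal ileum was taken from male C57BL6J mice at 8 weeks of age and its total RNA was hybridised to Affymetrix arrays. Low-dose penicillin at 6.7 mg/L was given from birth to 4 mice, the penicillin group, and 3 mice without antibiotic formed the control group. All 7 mice were weaned at 4 weeks onto chow and switched at 6 weeks to food in which fat supplied 45% of the calories. The labels call the mice biological replicates. Which litter or cage a mouse came from was not used here, so a litter or cage that differed between the groups cannot be told apart from penicillin. The p-values measure only the spread between these mice.

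Dietary vitamin A reaches the enterocyte as retinol, or as carotenoids that the cell cleaves to retinal. Cellular retinol-binding protein holds retinol, Lrat turns it into retinyl esters for export with dietary fat, and retinol dehydrogenases oxidise it to retinal. Retinal dehydrogenases then make retinoic acid, which acts through nuclear receptors and in the gut is known for giving lymphocytes their homing to the intestine. Genes such as Lrat, Dhrs3, Rarb and Isx are textbook targets of retinoic acid, and Isx in turn represses carotenoid uptake and cleavage.

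Rdh7 and Lrat stood higher in every penicillin mouse than in any control mouse, by 3.20-fold and 1.68-fold on average. Rbp2 and Aldh1a1 had higher means under penicillin with overlapping groups. The differences of Rdh7, Lrat, Rbp2 and Aldh1a1 were all smaller without control replicate 3. Aldh1a2, Dhrs3, Rarb, Isx and the brighter probe set of Rdh11 differed by 0.13 or less in size on the log2 scale over all 7 mice. Without control replicate 3 Isx differed by -0.26, and Aldh1a2 and Rdh11 by 0.16. Rdh7 had the largest positive difference of all 13644 genes tested. In whole tissue, fewer cells of a type and less RNA per cell cannot be told apart.

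Before these values are given, the arrays need description, 1 of them most. The bile acid carrier Fabp6, a marker of the distal ileum, lay between 14.28 and 14.64 on the log2 scale of the deposited values. Of 6 tested distal ileal genes, Fabp6 among them, 5 had their lowest value in control replicate 3. The mean of the 6 genes, each centred on its average over the arrays, was -0.54 in that mouse and -0.12 to 0.35 elsewhere. One protocol text mentions livers, but 3 of 6 hepatocyte markers lay under the level filter, and Alb lay between 5.15 and 7.95. Of the proximal small intestine genes, Lct was at 7.47 in penicillin replicate 3 against 4.36 to 5.11 elsewhere. Fabp1 was at 11.08 in penicillin replicate 4 against 8.40 to 9.52 elsewhere. The centred mean of the 6 tested proximal genes was 0.15 and 0.40 in these mice and -0.25 to 0.056 elsewhere. Cybrd1, Slc40a1 and Slc46a1 were instead lowest in penicillin replicate 3. Control replicate 3 stood apart in other lists. It had the lowest value of all 13 tested brush border genes, the markers of mature enterocytes, and the highest of all 5 tested adipocyte genes. The mean of the brush border genes, each centred on its average over the arrays, was -0.84 in that mouse, 0.040 and 0.094 in the other control mice and 0.0063 to 0.41 in penicillin mice. Of 5 tested colon genes 2 were highest there, Car1 at 14.10 against 5.11 to 10.82 elsewhere and Aqp8 at 8.27 against 3.86 to 4.29. The other 3 were not, and Car4 and B3gnt7 had their lowest control value in that mouse. The difference of each tested member is therefore also given without that mouse, and that of other genes where it turned the direction or moved by over 1.5 times.

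The promoter windows of Rdh7 and Lrat are shown because these genes stood higher in every penicillin mouse, and that of Rarb because it carries the element through which retinoic acid receptors are known to act. They are RefSeq sequences of build GRCm38.p6, from 250 bases before the start site to 50 after it, and 14 such windows matched the 9 genes. The genome build behind the arrays' annotation is not given in the sources used here. Capitals mark each receptor half-site, searched as AGGTCA, as AGTTCA, as GGGTCA and as GGTTCA on either strand.
Rdh7, chr10:127889198-127889497, minus strand: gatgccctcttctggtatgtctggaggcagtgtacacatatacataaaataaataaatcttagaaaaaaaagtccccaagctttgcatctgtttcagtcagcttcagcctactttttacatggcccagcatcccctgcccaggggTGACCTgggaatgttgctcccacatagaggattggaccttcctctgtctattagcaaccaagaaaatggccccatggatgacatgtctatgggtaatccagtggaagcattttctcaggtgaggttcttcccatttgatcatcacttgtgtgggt
Rdh7, chr10:127888684-127888983, minus strand: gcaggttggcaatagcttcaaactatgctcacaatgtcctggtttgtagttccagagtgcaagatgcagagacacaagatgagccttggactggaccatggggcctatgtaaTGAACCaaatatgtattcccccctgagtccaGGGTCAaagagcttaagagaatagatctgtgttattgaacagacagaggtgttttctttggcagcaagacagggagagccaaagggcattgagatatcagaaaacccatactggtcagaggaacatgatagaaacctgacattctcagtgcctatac
Lrat, chr3:82903925-82904224, minus strand: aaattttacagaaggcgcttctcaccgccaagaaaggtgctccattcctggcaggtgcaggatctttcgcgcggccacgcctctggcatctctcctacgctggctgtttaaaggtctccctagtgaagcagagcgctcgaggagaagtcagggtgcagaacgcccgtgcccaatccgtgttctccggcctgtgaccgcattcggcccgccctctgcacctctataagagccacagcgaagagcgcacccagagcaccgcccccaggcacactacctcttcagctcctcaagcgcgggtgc
Rarb, chr14:16575427-16575726, minus strand: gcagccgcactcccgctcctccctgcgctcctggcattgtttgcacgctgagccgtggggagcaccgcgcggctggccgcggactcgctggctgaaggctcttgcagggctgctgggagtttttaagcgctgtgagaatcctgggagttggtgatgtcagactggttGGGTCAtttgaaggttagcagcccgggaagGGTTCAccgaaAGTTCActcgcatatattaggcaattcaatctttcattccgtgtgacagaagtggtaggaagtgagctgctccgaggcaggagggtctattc
A half-site occurred in 8 of the 14 windows, belonging to 6 of the 9 genes, and in 43.7% of 32851 windows of this length in the table. The Lrat window held none. A direct repeat of 2 half-sites with 5 bases between them, the classical retinoic acid response element, was found in 1 of the 14 windows, that of Rarb, at bases 198 to 203 and 209 to 214. Only 0.0974% of all windows held this repeat. Repeats with 1 or 2 bases between them occurred in 0.222% and 0.268% of all windows and in 0 of the 14. A match is a description of the letters, and its absence says only that these letters are not in this window.

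Rdh7 encodes a microsomal retinol dehydrogenase, which oxidises retinol to retinal. Its level was 9.27, 8.57 and 7.57 in control replicates 1 to 3 and 9.64, 9.98, 10.74 and 10.24 in penicillin replicates 1 to 4. The lowest penicillin mouse thus lay above the highest control mouse, and control replicate 3 was the lowest of all. The means were 8.47 ± 0.85 (SD, n = 3) and 10.15 ± 0.46 (SD, n = 4), a difference of 1.68 ± 0.40 (SE) with a 95% interval of 0.74 to 2.62. Without control replicate 3 the difference was 1.23 ± 0.32 (SE), and Rdh7 then ranked 3 of 13644 genes from the highest difference. With the brush border mean as a covariate, an alternative added after the data had been seen, it was 1.02 ± 0.25 (SE).

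Lrat, lecithin retinol acyltransferase, makes the retinyl esters in which vitamin A is stored. Its brighter probe set was at 8.28, 8.33 and 7.68 in control mice and at 8.58, 8.80, 9.11 and 8.88 in penicillin mice. Its other probe set was at 6.65, 6.39 and 6.22 and at 6.85, 7.30, 7.61 and 7.11. On both probe sets every penicillin mouse lay above every control mouse, penicillin replicate 3 was the highest and control replicate 3 the lowest. The differences were 0.75 and 0.80, and without control replicate 3 they were 0.54 and 0.70. The brighter probe set gave an SE of 0.18 and, with the brush border mean as a covariate, a difference of 0.44 ± 0.083 (SE).

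**Figure D1:**
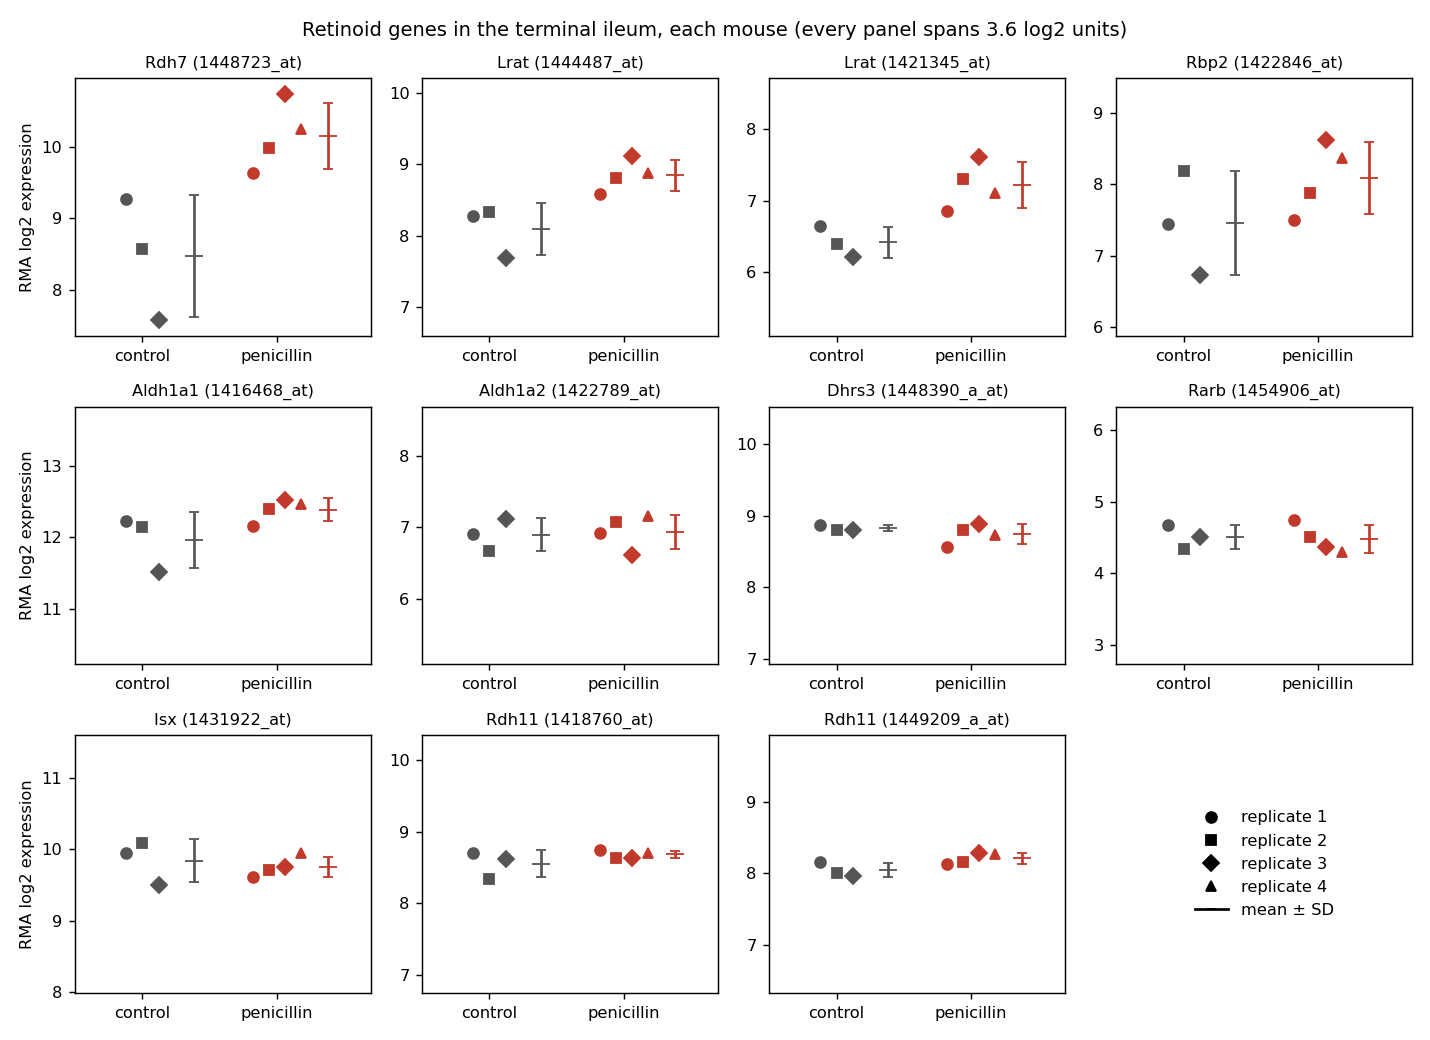
RMA log2 expression of the 11 probe sets in each mouse, control in grey and penicillin in red, with the mean and SD beside the points; the marker shape gives the replicate number and every panel spans the same height. The penicillin mice of Rdh7 and of both Lrat probe sets sit above all control mice, while the other 8 panels overlap.

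Rbp2, cellular retinol-binding protein 2, carries retinol and retinal inside the enterocyte. Its values were 7.44, 8.19 and 6.73 in control mice and 7.50, 7.87, 8.62 and 8.37 in penicillin mice. Control replicate 2 lay above penicillin replicates 1 and 2, so the groups overlapped. The difference of 0.63 ± 0.38 (SE) became 0.27 ± 0.34 (SE) without control replicate 3 and 1.00 without control replicate 2, and was 0.066 ± 0.28 (SE) with the brush border covariate.

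Aldh1a1, the retinal dehydrogenase of epithelial cells, makes retinoic acid from retinal. It was at 12.23, 12.14 and 11.52 in control mice and 12.16, 12.40, 12.53 and 12.47 in penicillin mice. Penicillin replicate 1 lay below control replicate 1, and the other 3 penicillin mice lay above every control mouse. The difference of 0.42 ± 0.18 (SE) became 0.20 ± 0.11 (SE) without control replicate 3 and 0.12 ± 0.082 (SE) with the brush border covariate. Aldh1a2, the retinal dehydrogenase known from dendritic cells and stroma, was at 6.90, 6.67 and 7.12 against 6.92, 7.07, 6.61 and 7.16. Its highest and its lowest value were both in penicillin mice, and the difference was 0.044 ± 0.15 (SE). It was 0.16 without control replicate 3, 0.24 with the brush border covariate and -0.072 without control replicate 2, so its direction was not settled.

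The enzymes that return retinal to retinol differed little between the groups. Dhrs3, a retinal reductase, was at 8.87, 8.80 and 8.80 in control mice and at 8.55, 8.80, 8.88 and 8.73 in penicillin mice, a difference of -0.083 ± 0.082 (SE), or -0.094 without control replicate 3. Rdh11, which also reduces retinal, was at 8.70, 8.34 and 8.61 against 8.75, 8.64, 8.64 and 8.70 on its brighter probe set. That is a difference of 0.13 ± 0.089 (SE), and its other probe set differed by 0.16. The brighter one differed by 0.20, 0.025 and 0.16 without control replicate 1, 2 and 3 in turn. The intervals of the fit ran from -0.27 to 0.11 for Dhrs3 and from -0.076 to 0.34 for Rdh11, and the groups overlapped on all 3 probe sets.

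Isx, the intestinal homeobox repressor of carotenoid uptake, was at 9.94, 10.09 and 9.50 in control mice and 9.61, 9.71, 9.75 and 9.94 in penicillin mice. All 4 penicillin mice lay within the range of the control mice. The difference was -0.090 ± 0.14 (SE), -0.26 ± 0.10 (SE) without control replicate 3 and 0.031 without control replicate 2. Rarb, retinoic acid receptor beta, lay under the level filter and was not fitted. It was at 4.68, 4.34 and 4.50 in control mice and 4.75, 4.50, 4.38 and 4.30 in penicillin mice, where these arrays give no detection call.

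Of the 9 genes 8 passed the filter on low values. With limma 0 of these 8 passed an adjusted p under 0.05, where 0.0953% of all 13644 genes did, 12 lower (0.088%) and 1 higher (0.00733%). At an unadjusted p under 0.05 there were 3, Rdh7, Lrat and Aldh1a1, all higher, where 4.37% of all genes were higher and 10.7% passed in either direction. The groups did not overlap in 2 of the 8, both higher, where this held for 4.29% of genes as higher and 10.3% in either direction. Without control replicate 1, with 2 control mice left, it held for 4 of the 8, all higher, where 7.48% of all genes were higher without overlap and 17.4% did not overlap in either direction. With limma's array quality weights 1 of the 8, Lrat, was called (adjusted p = 0.0344), where these weights called 5.67% of all genes, 3.58% lower and 2.1% higher. The median difference of the 8 genes was 0.28, and over all genes tested it was -0.014. Nothing is read from these counts, since the genes were proposed from this comparison.

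**Figure D2:**
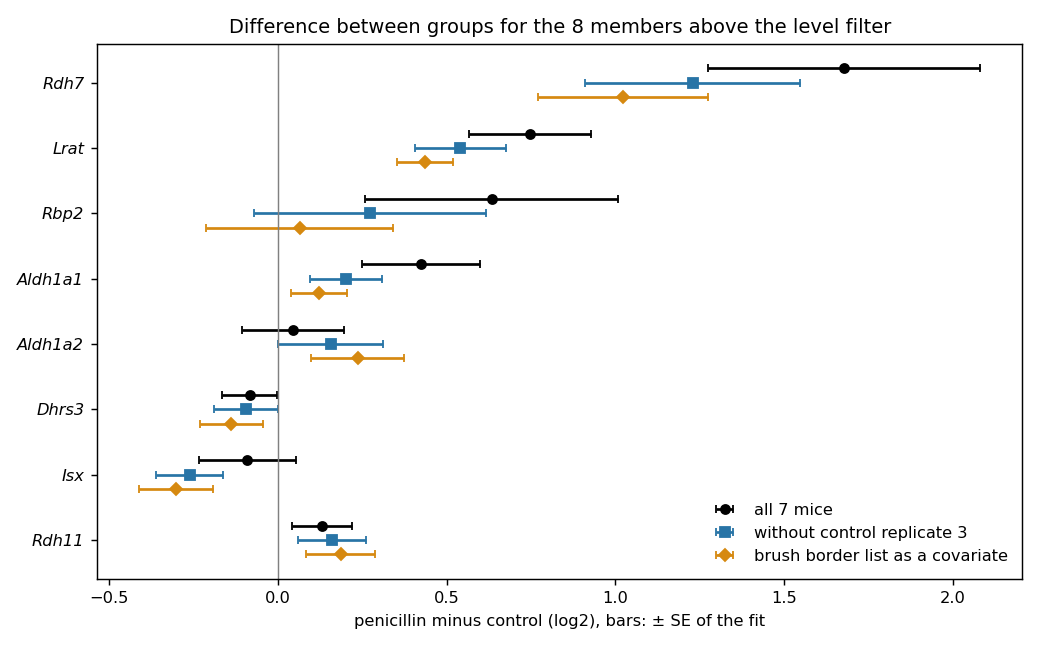
Penicillin minus control on the log2 scale, with bars for ± SE of the fit, for the 8 genes above the level filter, over all 7 mice, without control replicate 3, and with the brush border mean as a covariate. All genes but Dhrs3 and Isx stay above 0 in all 3 fits, and Rbp2 moves from 0.63 to 0.066.

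Across the mice, 5 of the 9 genes were lowest in control replicate 3 (Rdh7, Lrat, Rbp2, Aldh1a1 and Isx) and 5 were highest in penicillin replicate 3. Brush border genes followed a like order, with 13 of 13 lowest in control replicate 3 and 8 of 13 highest in penicillin replicate 3. Their means were higher under penicillin in 13 of 13, where 6177 of all 13644 genes had higher means. Without control replicate 3 the differences of Vil1, Anpep, Mgam, Slc5a1, Dpp4 and Mep1b fell below 0, to between -0.16 and -0.023. The other brush border genes stayed above 0. Treh, the trehalase of the brush border, went from 6.68 ± 1.04 (SD) to 7.76 ± 0.34 (SD), a difference of 1.08, or 0.49 without control replicate 3. In all, 3 of the 13 were higher without overlap, where 4.29% of all genes were. Markers of macrophages and dendritic cells, a known site of Aldh1a2, had lower means under penicillin in 8 of 12. Of all 13644 genes 7467 did. Adgre1 turned above 0, to 0.050, without control replicate 3, and over all 7 mice Zbtb46 and Cd209a differed by 0.15 and 0.11. The list means were -0.0011 to 0.23 in control and -0.20 to 0.0044 in penicillin mice. The largest difference of this list was that of Irf8, at -0.64 ± 0.098 (SE, limma adjusted p = 0.0911). Adipocyte genes were highest in control replicate 3 as well, at a mean of 0.95 there and -0.63 to 0.36 elsewhere. Only the brush border genes were used as a covariate. The part of the adipocyte, macrophage and dendritic cell genes in the retinoid values was not tested.

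The 4 genes nearest to Rdh7 over the 7 arrays, by the root mean square difference of values centred on each gene's mean, were Rdh16f2 (0.30), Mme (0.32), Treh (0.36) and Cyp2d26 (0.37). For Lrat they were Clec2e (0.089), Osbpl6 (0.10), Ifi27l2b (0.11) and Depdc7 (0.12), and for Rbp2 they were Acox2 (0.14), Creb3l3 (0.17), Aqp7 (0.19) and Slc22a4 (0.21). Rdh16f2 is itself a neighbour of Rdh7 in the genome. RefSeq places 6 protein-coding genes from Rdh1 to Rdh7, a tandem group of related short-chain dehydrogenases, and 5 of them had a probe set of their own on the arrays.

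Rdh16f2 was at 5.89, 5.49 and 5.05 in control mice and at 6.57, 7.27, 7.59 and 6.84 in penicillin mice. The groups did not overlap, the difference was 1.59 ± 0.28 (SE, limma adjusted p = 0.121), and without control replicate 3 it was 1.38. It ranked 3 of 13644 genes from the highest difference. Rdh9 was at 10.75, 10.86 and 9.29 against 10.87, 11.01, 11.17 and 11.09. Here control replicate 3 alone lay far below, and the difference of 0.73 ± 0.35 (SE, limma adjusted p = 0.501) became 0.23 without it.

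Rdh16, another retinol dehydrogenase of the group, was at 5.71, 5.56 and 4.38 in control mice against 5.92, 6.18, 6.42 and 5.52 in penicillin mice. Its difference of 0.80 ± 0.34 (SE, limma adjusted p = 0.465) became 0.38 without control replicate 3, and penicillin replicate 4 lay below 2 control mice. Rdh1, at 3.81 to 4.26, lay under the filter. Probes of such related genes can bind each other's transcripts. The probe set of Rdh9 carries the manufacturer's mark for probes shared by several transcripts, so these values are uncertain as measures of single genes.

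**Figure D3:**
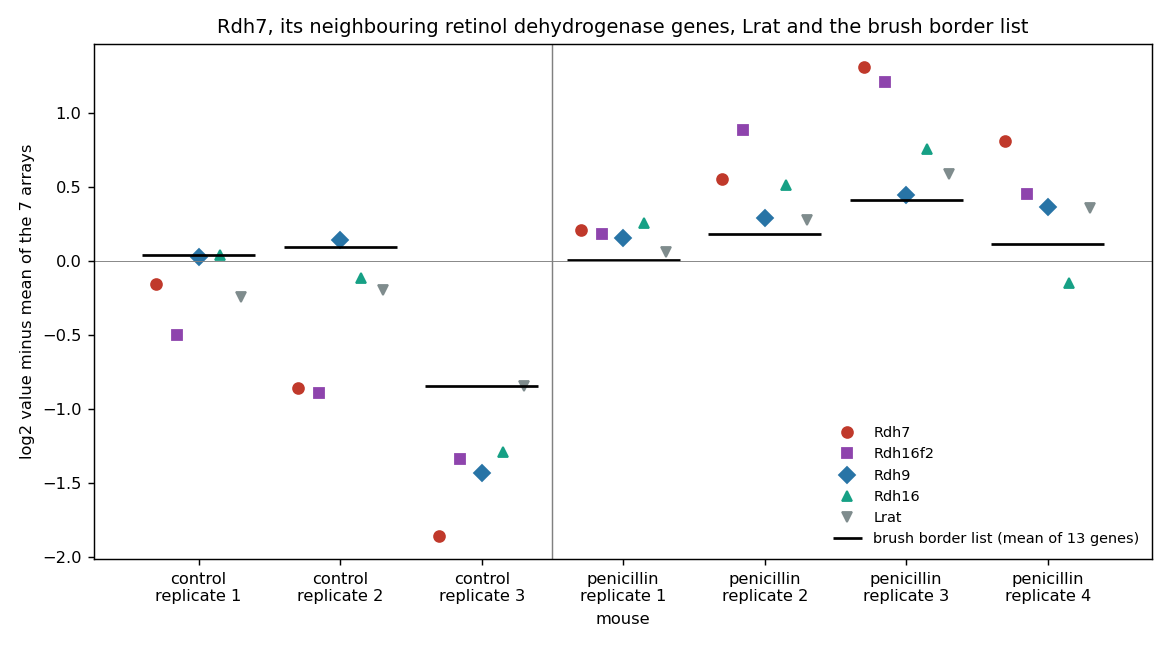
Log2 values of Rdh7, of its neighbours Rdh16f2, Rdh9 and Rdh16, and of Lrat in each mouse, each minus its mean over the 7 arrays; the black bars give the mean of 13 brush border genes. All 5 genes are lowest in control replicate 3, as is the brush border mean, and Rdh7 and Rdh16f2 lie below that mean in every control mouse and above it in every penicillin mouse.

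The rest of the pathway was read from lists of other retinoid genes by role, with 68 members, 57 of them on the arrays and 47 tested. With limma 0 of the 47 passed an adjusted p under 0.05, and 10 had an unadjusted p under 0.05, where 10.7% of all genes did. These were 7 lower, against 6.35% of all genes, and 3 higher, against 4.37%. Array quality weights called 8, where they called 5.67% of all genes. The lower ones were Tgm2, Ccr9, Saa1 and Saa2, and the higher ones were Ttr, Plb1, Adh7 and Stra8, some of which are named after their values were seen. The median difference of the 47 genes was -0.040, against -0.014 over all genes, and 0.011 without control replicate 3.

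Among genes of uptake and cleavage Bco1, which cleaves beta-carotene to retinal, was at 7.09, 7.36 and 6.32 in control mice and 7.41, 7.81, 7.53 and 7.43 in penicillin mice. Its groups did not overlap, and the difference was 0.62 ± 0.23 (SE, limma adjusted p = 0.423), or 0.32 without control replicate 3. Scarb1, the scavenger receptor that takes up carotenoids, differed by -0.19 ± 0.14 (SE). This was -0.040 without control replicate 3 and -0.34 without control replicate 2. The probe set used for Scarb1 is marked as open to cross-hybridisation, and the mean of its probe sets differed by -0.11. Stra6, a retinol transporter, differed by 0.032 ± 0.057 (SE), or 0.012 without control replicate 1. None of the 6 genes of this list passed an adjusted p under 0.05.

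Of the binding proteins, Ttr, the blood carrier of thyroxine and of the retinol-binding protein Rbp4, was higher in every penicillin mouse. It was at 8.45, 8.59 and 8.58 in control mice and 9.17, 9.02, 8.84 and 9.50 in penicillin mice. The difference was 0.59 ± 0.14 (SE, limma adjusted p = 0.259), or 0.61 without control replicate 3. The probe set used for Ttr is marked as open to cross-hybridisation, and the mean of its probe sets differed by 0.54. Rbp4 differed by -0.11 ± 0.37 (SE), was highest in control replicate 3, at 9.16, and without that mouse differed the other way, by 0.31. Rbp7 differed by 0.14 ± 0.14 (SE), or 0.25 without control replicate 3 and 0.025 without control replicate 1. Crabp2, which delivers retinoic acid to its receptor, lay under the filter at 3.68 to 3.93.

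Among the enzymes of the lists, Dgat1, which also esterifies retinol, and Plb1, a brush border retinyl ester hydrolase, differed by 0.25 ± 0.16 and 0.28 ± 0.17 (SE). Each rested on 1 control mouse, with Dgat1 at 0.073 without control replicate 3 and Plb1 at 0.047 without control replicate 1. Aldh1a7, a close relative of Aldh1a1, differed by 0.44 ± 0.24 (SE), or 0.19 without control replicate 3, and Aldh8a1 by 0.094 ± 0.070 (SE), or 0.039 without penicillin replicate 1. Rdh10, the retinol dehydrogenase that is essential in the embryo, differed by 0.018 ± 0.064 (SE), between -0.13 and 0.17 by its 95% interval and -0.032 without control replicate 3. Adh1 differed by -0.20 ± 0.12 (SE), or -0.096 without penicillin replicate 3. The retinoic acid hydroxylase Cyp26b1 differed by -0.046 ± 0.069 (SE), or -0.12 without control replicate 3, and Cyp26a1 lay under the filter at 3.72 to 3.91. The receptors were close to 0, with Rara at 0.040 ± 0.065 and Rxra at 0.0022 ± 0.065 (SE), and without control replicate 3 both lay below 0, at -0.0096 and -0.049. Over the 7 tested receptors and partners the largest difference in size was 0.073, and Rxrb and Ncoa1 were at -0.071, or -0.045 without control replicate 3, and -0.066.

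The listed genes known to respond to retinoic acid had lower means under penicillin in 7 of 8 tested, where 7467 of all 13644 genes did. Among the lower ones, Hic1 and Rarres1 each differed by only -0.040. Rarres2 differed by -0.21, and by 0.0016 without control replicate 3. In 4 of the 8 the groups did not overlap, where 6.05% of all genes were lower without overlap. The members Lrat, Dhrs3, Rarb and Isx, also targets of retinoic acid, were not in this list. Lrat differed by 0.75, Dhrs3 by -0.083 and Isx by -0.090, and Rarb lay under the filter. Tgm2, tissue transglutaminase, was at 11.75, 11.77 and 11.63 in control mice and 11.38, 11.30, 11.05 and 11.29 in penicillin mice. All penicillin mice lay below all control mice, and the difference was -0.46 ± 0.086 (SE, limma adjusted p = 0.144). The probe set used for Tgm2 is marked as open to cross-hybridisation, and the mean of its probe sets differed by -0.37. Ccr9, the chemokine receptor of gut-homing lymphocytes, was at 7.05, 6.82 and 7.08 against 6.44, 6.78, 6.35 and 6.47, a difference of -0.47 ± 0.12 (SE, limma adjusted p = 0.259). This is the brightest of its probe sets, one marked as open to cross-hybridisation, and the mean of its probe sets differed by -0.17. Ccr9 belongs to the lymphocytes themselves, and the number of these cells was not measured. The integrin chains Itga4 and Itgb7, named after their values were seen because they complete the 4 genes without overlap, differed by -0.27 and -0.24. For these chains too the number of cells that express them was not measured.

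The serum amyloid A proteins, which carry retinol during infection, had the largest negative values of the lists. Saa1 was at 12.27, 12.61 and 11.61 in control mice and at 11.17, 8.47, 8.00 and 6.41 in penicillin mice, and Saa2 was at 8.47, 8.70 and 7.73 against 7.52, 6.26, 6.31 and 5.04. All 3 genes of the family lay lower in every penicillin mouse than in any control mouse, where 6.05% of all genes were lower without overlap. The penicillin mice of Saa1 lay between 6.41 and 11.17. Saa3, named to complete the family, differed by -1.40 ± 0.42 (SE), or -0.86 without control replicate 3. The differences of Saa1 and Saa2 were -3.65 ± 0.97 (SE) and -2.02 ± 0.52 (SE), with limma adjusted p of 0.301 and 0.290, so that neither passed. Probe sets of this family may also share transcripts.

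**Figure D4:**
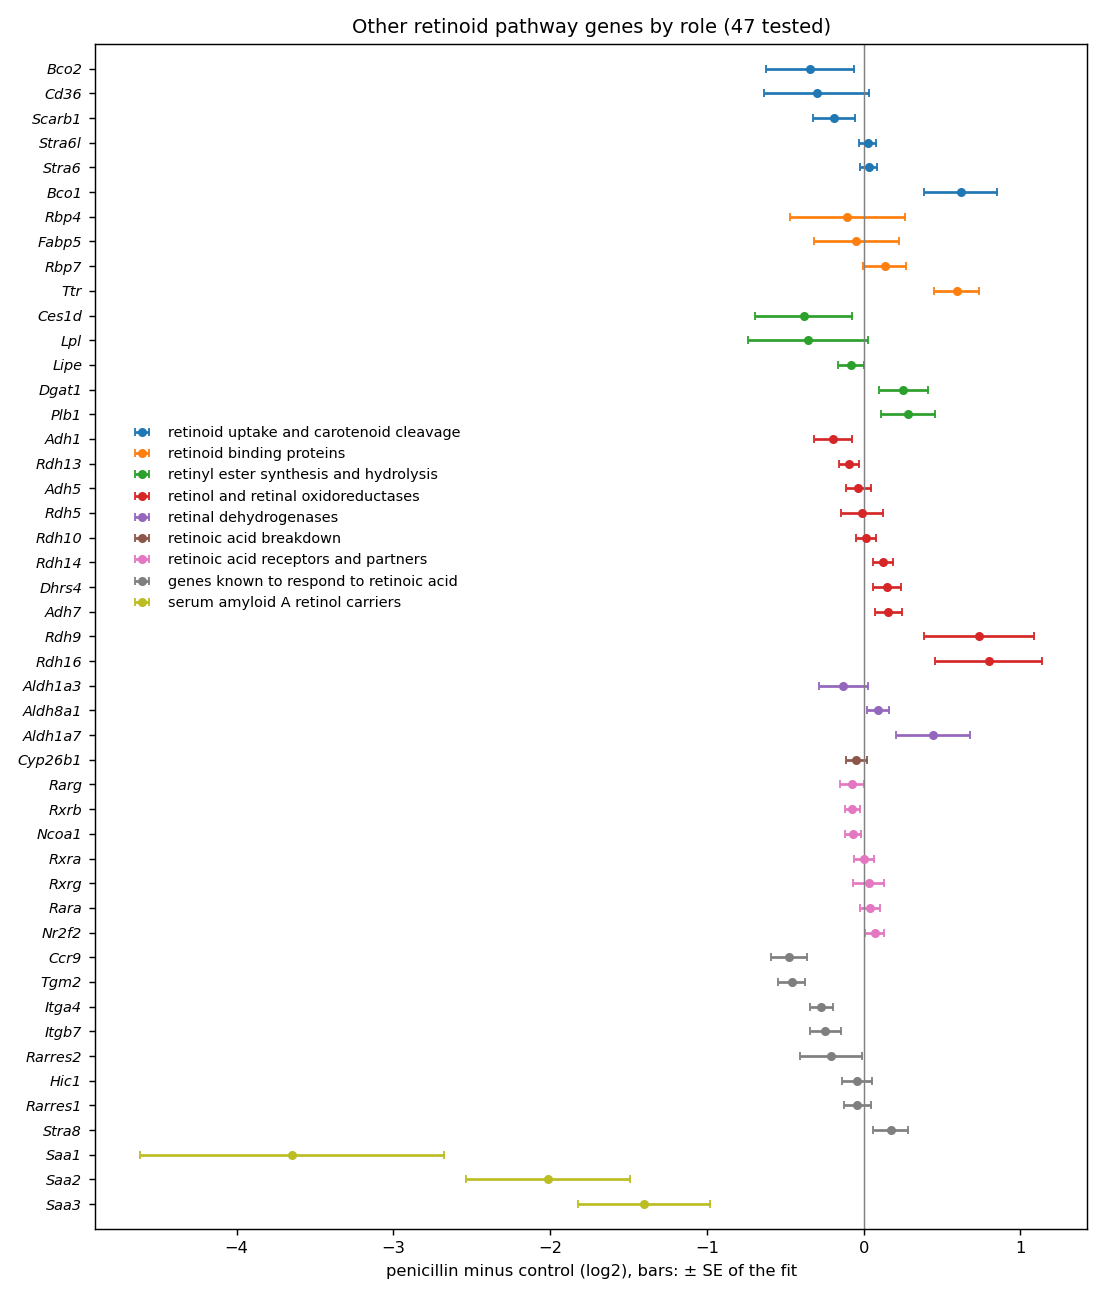
Penicillin minus control on the log2 scale, with bars for ± SE of the fit, for 47 retinoid pathway genes coloured by role. The receptors lie within 0.073 of 0, the genes known to respond to retinoic acid lie mostly left of 0, and Saa1, at -3.65, is farthest from it.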

How the data were processed

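The deposited values are log2 expression per probe set, made by the authors with RMA (the submitters' processing notes name affy), with the version not given in the sources used here. RMA subtracts background, gives all arrays 1 distribution and combines each set's probes, which can compress differences and gives no detection call. Probe sets were named from the platform annotation of 2016, in which 34958 had 1 gene, 932 several and 9211 none listed, and 34741 of the 34945 used matched RefSeq by gene ID. Where a gene had several probe sets, the one with the highest average was kept. Genes whose average did not exceed the 25th percentile, log2 4.588, were not tested.

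The groups were compared with limma 3.58.1 (lmFit and eBayes, two-sided, Benjamini-Hochberg over 13644 genes) in R 4.3.3, after the fit was tested on simulated data. The number of arrays limits the precision of each value. Members and lists were chosen with earlier results of these data known. Besides the members, the text names pathway genes past the threshold, the 2 of each list with the largest moderated statistic, a fixed set of retinoid genes, up to 2 markers of a list, and the 4 genes most like each of the 3 members with the widest range. Figures were drawn with matplotlib 3.10.9. Alternatives were another normalization, filter, probe set rule, prior, weighting, block, threshold or set of arrays.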

Additional observations from a re-analysis of the deposited data

How the results depend on the processing

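Over 19 alternatives the differences of Rdh7, Lrat, Rbp2, Aldh1a1 and Rdh11 stayed above 0 and that of Dhrs3 below 0. The alternatives of filter, prior, moderation and threshold leave the group means as they are, so they could not change a difference. The mean of probe sets could not change that of a gene with 1 probe set. Rdh7 lay between 0.95, with array quality weights, and 2.08, without control replicate 1. Lrat lay between 0.44 and 0.87, Rbp2 between 0.066 and 1.00 and Aldh1a1 between 0.12 and 0.56, each lowest with the brush border covariate. Aldh1a2 was above 0 in 16 and Isx in 1. In limma 12 genes were lower and 1 higher in all. An adjusted p under 0.1 gave 37 and 3, array quality weights 488 and 286, the mean of probe sets 7 and 0, an unmoderated statistic 0 and 0, and leaving out both replicates numbered 3 gave 2 and 0. The brush border covariate gave 2 higher beside genes called lower, and 7 of its calls were shared with the main fit. Leaving out single mice gave 0 to 14 lower and 0 to 1 higher, 2 to 4 of the 8 members without overlap and 0 members or pathway genes called. No gene was called without control replicate 1 or 2 or penicillin replicate 1 or 4, and 2 were called without penicillin replicate 3, all lower. Array quality weights called 1 member, 4 pathway genes lower and 4 higher. They weighted control replicate 1 at 4.54 and control replicate 3 at 0.249. With the replicate number as a block 0 genes were lower and 0 higher (509 and 294 at an unadjusted p under 0.05). The deviations of same-numbered mice from their group means correlated at -0.16, 0.0030 and -0.42. Such values cannot show whether same-numbered mice shared a litter, cage or batch. Signal near background limits Rarb, Cyp26a1, Crabp2 and Rdh1.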
